A study of Mus musculus with 60 samples.

Results

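The 10 genes described here decide whether a dividing cell goes on to copy its DNA or stops in G1: the pocket proteins Rb1, Rbl1 and Rbl2, the cyclin-dependent kinase inhibitors Cdkn1a, Cdkn1b, Cdkn1c and Cdkn2c, and the D-type cyclins Ccnd1, Ccnd2 and Ccnd3. They were chosen by gene symbol for their known role, with earlier results of these data known, and all 10 were found among the 15094 named genes of the series. They lie on 21 rows of the array tables, which hold 11 distinct probes, 10 on array part I and 1 on array part II, where Ccnd2 has its second probe. For 8 of the 10 genes (9 probes) enough arrays gave a value for a test. Cdkn1b and Ccnd1 did not, and are described without one.

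The study compared 5 mouse cell lines on spotted 2-colour microarrays, with 3 cultures of each line. Transfection of Pabpn1, the nuclear poly(A)-binding protein, gave 4 of them: D7E (high) and D7F (low) with a mutant form, and WTA (high) and WTD (low) with the wild-type form. IM2 was the untransfected line. Each culture was hybridised against a common IM2 reference in both dye orientations on both array parts, which makes 4 arrays per culture, 15 cultures and 60 arrays. The labels give total RNA for part I and poly(A) RNA for part II. They do not say which mutation was carried, from which tissue the lines came, what drove the transgene or whether a line was a clone. Each combination of genotype and level is 1 line, so that a difference between lines and a difference between genotypes or levels cannot be told apart. The p-values rest on how far cultures of the same line lay apart, and the labels do not say how those cultures were kept separate.

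Values are log2 ratios of a culture over the IM2 reference, so 0 means the reference level and 1 a doubling. They are differences from the reference and not levels, and cannot be compared between genes as amounts of RNA. The deposited ratios give no base. Base 10 was assumed because the values stop exactly at 2 and -2, and sizes hold only with that base. Values at those limits were treated as not measured. Such values were 7.71% of those filled on part I, and 10.5% on part II. The share of probes missing or at a limit was highest in the IM2 arrays, with a median of 17.3% on part I, against 5.27% to 11.7% in the transfected lines, and 39.4% on part II, against 13.8% to 20% in the transfected lines. Mean log2 ratios of Pabpn1 stood at 2.19 for WTA, 1.43 for WTD, 1.61 for D7E and 0.92 for D7F, against -0.18 for IM2. The direction, culture over reference, is likely on part I, where Pabpn1 ratios were above 0 in the lines transfected with it. Part II has no tested Pabpn1 probe. For 156 genes tested on both parts the differences of the transfected mean from IM2 correlated across genes with r = 0.397 and had the same sign in 91, which is a description, since genes are not independent. The signs given for part II therefore rest on reading both parts alike, and these are the signs of the second Ccnd2 probe, Cdt1, Cdkn3, Lin9, Grb10, Col1a2, Sesn1, Sesn2, Mef2d and Ttn. Precision is limited by how many arrays there were, and ratios alone give no depth.

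In G1, D cyclins activate the kinases Cdk4 and Cdk6, which phosphorylate the pocket proteins. Unphosphorylated pocket proteins hold E2F transcription factors in check, and phosphorylation frees them to switch on genes for DNA replication. Cdkn2c, of the INK4 family, binds Cdk4 and Cdk6 directly, while Cdkn1a, Cdkn1b and Cdkn1c, of the CIP/KIP family, bind complexes of cyclins with their kinases. When myoblasts fuse into muscle fibres, Rb1 and several of these inhibitors keep the nuclei from dividing again.

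Rbl1 is itself known as an E2F target. RefSeq promoter entries of assembly GRCm38.p6 were held for 6 of the 10 genes, and none was held for Rb1, Cdkn1c, Ccnd1 or Ccnd2. The 250 bases before the start are printed for 2 pocket proteins and an inhibitor with results below: Rbl1 (chr2:157204535-157204784, minus strand), Rbl2 (chr8:91069807-91070056, plus strand) and Cdkn2c (chr4:109666757-109667006, minus strand), the last being the first of 2 entries. Each is read 5′ to 3′ on the strand of its gene. Capitals mark an E2F-type motif in Rbl1 and the reverse complement of a CHR-type motif (the cell cycle homology element, TTTGAA) in Rbl2.
Rbl1: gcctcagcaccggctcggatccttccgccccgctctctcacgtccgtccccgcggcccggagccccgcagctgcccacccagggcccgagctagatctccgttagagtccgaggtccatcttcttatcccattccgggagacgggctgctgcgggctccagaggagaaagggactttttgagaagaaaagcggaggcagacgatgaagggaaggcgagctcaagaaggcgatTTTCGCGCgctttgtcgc
Rbl2: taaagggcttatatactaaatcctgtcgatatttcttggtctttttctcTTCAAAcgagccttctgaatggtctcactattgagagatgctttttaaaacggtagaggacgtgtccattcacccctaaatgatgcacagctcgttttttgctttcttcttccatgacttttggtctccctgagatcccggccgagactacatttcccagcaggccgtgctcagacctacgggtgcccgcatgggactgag
Cdkn2c: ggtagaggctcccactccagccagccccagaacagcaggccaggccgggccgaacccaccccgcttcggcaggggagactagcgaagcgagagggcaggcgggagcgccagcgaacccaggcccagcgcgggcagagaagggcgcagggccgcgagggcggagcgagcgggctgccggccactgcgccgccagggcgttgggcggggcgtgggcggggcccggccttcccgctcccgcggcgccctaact
The E2F-type motif was searched on both strands as TTTCCCGC, TTTCGCGC, TTTGCCGC or TTTGGCGC. Rbl1 held TTTCGCGC 18 bases before its start, and 1.86% of 32851 RefSeq promoters of this length held any of the 4 forms. Rbl2 held the CHR-type motif 201 bases before its start, as did 16% of all promoters somewhere in the window. The printed Cdkn2c entry held neither. It held GGGCGG, the GC box, at 3 positions, while the second Cdkn2c entry held 0, and Rbl1 held its reverse complement 226 bases before its start. Over all promoters 32.7% held this motif. These letters are a description of the window and not of a factor bound there.

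Rb1, the retinoblastoma protein, stood above IM2 in each of the 4 transfected lines. Its log2 ratios in cultures 1, 2 and 3 were 1.01, 1.08 and 2.00 in WTA. In WTD they were 0.92, 0.79 and 1.29. D7E gave 1.24, 1.17 and 1.49. D7F gave 0.87, 1.30 and 1.33, against -0.46, 0.23 and -0.51 in IM2. The lowest of the 12 transfected cultures, at 0.79, lay above the highest IM2 culture, at 0.23, and Rb1 was the only tested probe of the set without overlap between these groups, a pattern seen in 11.5% of all 9708 tested probes. The mean of the transfected lines exceeded IM2 by 1.45 (SE 0.22, 2.74-fold, adjusted p = 0.00127), which ranked 101 of 9708 by size. WTA rose by 1.61 over IM2 (adjusted p = 0.00349), and WTD by 1.24 (adjusted p = 0.0205). D7E rose by 1.54 (adjusted p = 0.00479) and D7F by 1.42 (adjusted p = 0.0123), with an SE of 0.28 for each line. The transfected lines followed each other in the order WTA, D7E, D7F, WTD with gaps of 0.07 to 0.17, and no neighbouring pair passed the threshold.

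Some of the IM2 arrays behind the Rb1 difference were of low quality. Both part I arrays of IM2 culture 1 and an array of IM2 culture 3 were among the 5 part I arrays with the most missing or limit values. Without the 5 poorest arrays of each part the difference of the transfected mean was 1.08 (adjusted p = 0.0987). The IM2 ratios of Rb1 also differed between dyes, at 0.34, 0.48 and -0.15 with the culture in Cy3 and -1.26, -0.01 and -0.87 with the culture in Cy5. With Cy3 arrays alone the transfected mean still exceeded IM2 by 1.18 (adjusted p = 0.00875), but the differences in WTD (adjusted p = 0.0729) and D7F (adjusted p = 0.0792) did not pass. With Cy5 arrays alone the transfected mean exceeded IM2 by 1.73 (adjusted p = 0.0214), but the differences in WTD, D7E and D7F did not pass. In D7E culture 2 the ratio was 2.21 in Cy3 and 0.125 in Cy5, and the Cy3 array was also among those 5 poorest. WTD and D7F also did not pass when the IM2 ratios were given the opposite sign (adjusted p = 0.119 in WTD and 0.0648 in D7F). The call of Rb1 in the transfected mean held in 26 of 27 other settings, with adjusted p = 0.000398 to 0.0987. In the low lines some single cultures decided the Rb1 call. WTD no longer passed without WTD culture 1 (adjusted p = 0.051), WTD culture 3 (adjusted p = 0.0829), IM2 culture 1 (adjusted p = 0.0694) or IM2 culture 3 (adjusted p = 0.0721), and D7F no longer passed without D7F culture 2 (adjusted p = 0.0575), D7F culture 3 (adjusted p = 0.0517) or IM2 culture 1 (adjusted p = 0.055).

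Rbl1 (p107) was lower in the transfected lines by a small margin. Its log2 ratios were -0.25, -0.02 and -0.21 in WTA. WTD gave -0.41, -0.42 and -0.29. D7E gave -0.47, -0.49 and -0.45, the narrowest spread of the lines. The dye arrays behind these values lay further apart, at -0.80 and -0.17 in D7E culture 2 and -0.71 and -0.19 in D7E culture 3 (Cy3 first). D7F gave -0.12, -0.23 and -0.34, against -0.15, 0.00 and 0.17 in IM2. All 3 cultures of WTD and of D7E lay below the lowest IM2 culture, while those of WTA and D7F overlapped with IM2. Of all tested probes, 18.8% lay wholly below IM2 in WTD and 20% in D7E. The transfected mean fell by 0.32 (SE 0.09, adjusted p = 0.0313), which is 1.25-fold lower, and of the single lines D7E fell by 0.48 (SE 0.11, adjusted p = 0.0164). WTD differed from IM2 by -0.38 (adjusted p = 0.0598). The call in the transfected mean held in 17 of 27 other settings. Among other settings, it ended without WTD culture 1 (adjusted p = 0.0502), WTD culture 2 (adjusted p = 0.051), IM2 culture 2 (adjusted p = 0.063) or IM2 culture 3 (adjusted p = 0.157), and with Cy5 arrays alone (adjusted p = 0.283). The call in D7E held in 22 of 28 other settings, and ended without D7E culture 2 (adjusted p = 0.0508) or IM2 culture 3 (adjusted p = 0.0633), among others.

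Rbl2 (p130), the pocket protein that binds E2F in resting cells, did not pass any test. Its line means ± SD were 0.39 ± 0.39 for WTA, 0.17 ± 0.23 for WTD, 0.35 ± 0.16 for D7E and 0.13 ± 0.18 for D7F, against -0.08 ± 0.22 for IM2 (n = 3 each). The transfected mean lay 0.34 above IM2 with an interval of 0.00 to 0.69 (adjusted p = 0.163). The 3 pocket proteins thus had differences from IM2 of unlike sign, with Rb1 past the threshold above IM2, Rbl1 past it below, and Rbl2 not past it.

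**Figure D1:**
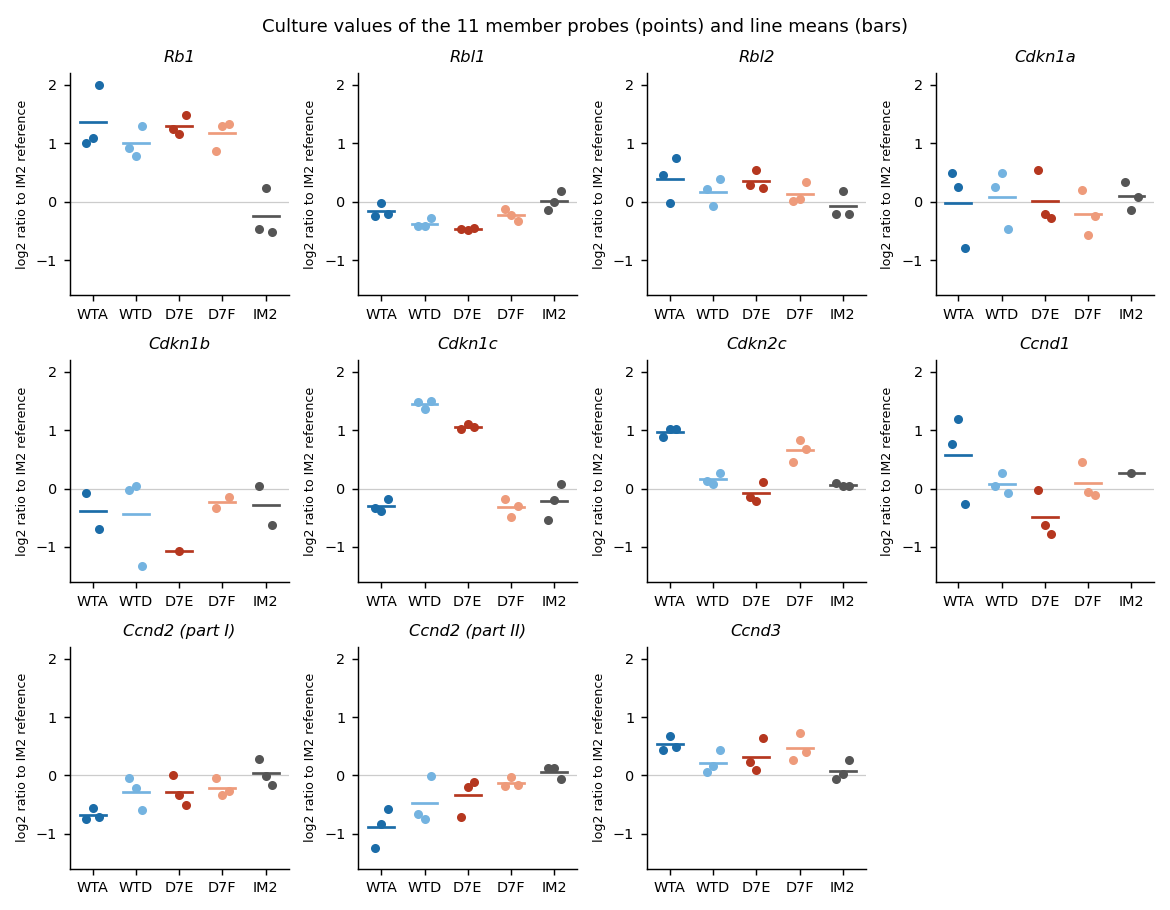
Log2 ratio to the IM2 reference (vertical axis) of the 11 probes in each of the 5 lines. Points are cultures, 3 in a line unless arrays were at a limit, and bars are line means. Rb1 stands above IM2 in every transfected culture, and Cdkn1c and Cdkn2c are raised in different pairs of lines.

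Cdkn1c (p57), an inhibitor of the CIP/KIP family that is expressed from the maternal allele, had the lowest p of the set over the 5 lines. Its log2 ratios were 1.49, 1.36 and 1.49 in WTD and 1.02, 1.11 and 1.05 in D7E. In WTA they were -0.34, -0.38 and -0.18. In D7F they were -0.17, -0.50 and -0.30, against -0.55, -0.19 and 0.07 in IM2. The 6 cultures of WTD and D7E lay at 1.02 or above, and the 9 other cultures at 0.07 or below. Single arrays were also apart, by less: the lowest of the 12 WTD and D7E arrays stood at 0.65 and the highest of the 18 others at 0.13. Against IM2, Cdkn1c rose by 1.67 in WTD (SE 0.15, 3.18-fold, adjusted p = 7.73e-05) and by 1.28 in D7E (2.43-fold, adjusted p = 0.000337). The differences were -0.08 in WTA, with an interval of -0.40 to 0.24, and -0.10 in D7F, with an interval of -0.42 to 0.22, and neither passed (adjusted p = 0.78 and 0.727). Of all tested probes, 17.4% lay wholly above IM2 in WTD and 17.3% in D7E. WTD and D7E did not overlap with each other, but their difference of -0.39, D7E minus WTD, did not pass (adjusted p = 0.761). The share of all tested probes without overlap in that pair was not counted.

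Cdkn2c (p18), the INK4 inhibitor of the set, was raised in the other pair of lines. Its log2 ratios were 0.89, 1.01 and 1.02 in WTA and 0.46, 0.82 and 0.67 in D7F. In WTD they were 0.12, 0.08 and 0.27. In D7E they were -0.15, -0.21 and 0.11, against 0.10, 0.04 and 0.04 in IM2. Every WTA and D7F culture lay above every culture of the other 3 lines. Of all tested probes, 14.8% lay wholly above IM2 in WTA and 16% in D7F. Against IM2, Cdkn2c rose by 0.91 in WTA (SE 0.12, 1.88-fold, adjusted p = 0.000736) and by 0.59 in D7F (1.51-fold, adjusted p = 0.0151). The differences of 0.10 in WTD (interval -0.16 to 0.36) and -0.15 in D7E (interval -0.41 to 0.12) did not pass. WTA and D7F did not overlap, yet their difference of -0.32, D7F minus WTA, did not pass (adjusted p = 0.408), and the share of all tested probes without overlap in that pair was not counted. The D7F call against IM2 ended without D7F culture 2 (adjusted p = 0.0765) or D7F culture 3 (adjusted p = 0.0546).

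The genotype by level comparison sets the mean of WTD and D7E against the mean of WTA and D7F, and is where these 2 inhibitors stood out. Cdkn1c was higher by 1.56 (SE 0.10, adjusted p = 1.24e-05) and Cdkn2c was lower by 0.78 (SE 0.08, 1.71-fold, adjusted p = 0.00052). They were the only 2 of 9 probes past the threshold, against 2.37% of all tested probes (0.845% higher and 1.52% lower), and the only 2 whose cultures did not overlap, against 2.93% of all tested probes. By p-value Cdkn1c ranked 2 and Cdkn2c ranked 16 of 9708. Both calls held in all 27 other settings, at 1.5 to 1.72 for Cdkn1c and at -0.84 to -0.70 for Cdkn2c. Within each genotype the sign was turned: Cdkn1c differed by -1.75 between WTA and WTD (adjusted p = 7.05e-05) and by 1.38 between D7E and D7F (adjusted p = 0.0017), and Cdkn2c by 0.81 (adjusted p = 0.00392) and by -0.74 (adjusted p = 0.0312). The last of these passed in 11 of 27 other settings, with adjusted p = 0.00874 to 0.662, and ended when any 1 of 7 cultures was left out, among them D7F culture 2 (adjusted p = 0.155) and D7F culture 3 (adjusted p = 0.115).

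By mean Pabpn1 ratio, WTA was the highest and D7F the lowest of the transfected lines, with WTD and D7E between them. The part of Pabpn1 in the pattern was not tested. Between lines of the same labelled level, Cdkn1c was higher in D7E than in WTA by 1.36 (adjusted p = 0.000776) and lower in D7F than in WTD by 1.77 on the log2 scale (adjusted p = 6.29e-05), and Cdkn2c was lower in D7E than in WTA by 1.06 (adjusted p = 0.00111). Over the 6 pairs of transfected lines, 7 member differences passed, 4 of Cdkn1c and 3 of Cdkn2c, and none of another gene. The background was 1.77% of probes for WTA against WTD, 0.227% for D7E against D7F, 1.64% for D7E against WTA and 0.453% for D7F against WTD.

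**Figure D2:**
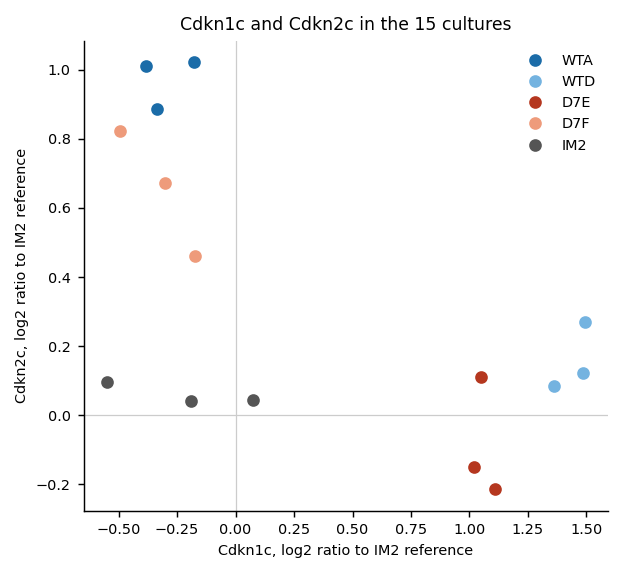
Log2 ratio of Cdkn2c (vertical axis) against that of Cdkn1c (horizontal axis) in the 15 cultures, coloured by line. WTD and D7E lie to the right, WTA and D7F at the upper left, and IM2 near 0 on the Cdkn2c axis.

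Cdkn1a (p21), the CIP/KIP inhibitor that p53 induces, varied between cultures of a line, and no line differed from another past the threshold. Its log2 ratios were 0.49, 0.26 and -0.79 in WTA. WTD gave 0.24, 0.49 and -0.47. D7E gave 0.54, -0.21 and -0.28. D7F gave 0.20, -0.58 and -0.24, against 0.33, -0.14 and 0.08 in IM2. All lines overlapped, and the transfected mean differed from IM2 by -0.12 with an interval of -0.74 to 0.50 (adjusted p = 0.808). The interval holds differences of either sign, and a change within it was not detectable here. The SD within lines was 0.48, higher than in 78.5% of tested part I probes, whose median was 0.26. The 2 dye arrays of a culture, by contrast, differed by a median of 0.23, less than in most probes (percentile 30.2). Culture 1 was the highest of its line in WTA, D7E, D7F and IM2, and culture 2 in WTD.

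Cdkn1b (p27) had 5 of 30 arrays at a limit and both dyes in only 10 cultures, with a single such culture in D7E. Its line means were -0.39 for WTA (n = 2), -0.43 for WTD (n = 3), -1.06 for D7E (n = 1) and -0.23 for D7F (n = 2), against -0.29 for IM2 (n = 2). The 2 dyes disagreed, by up to 3.99 in a culture. Fits that admit it gave differences of the transfected mean from IM2 of -1.15 to 1.04, of either sign, and none passed (adjusted p = 0.254 to 0.787).

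**Figure D3:**
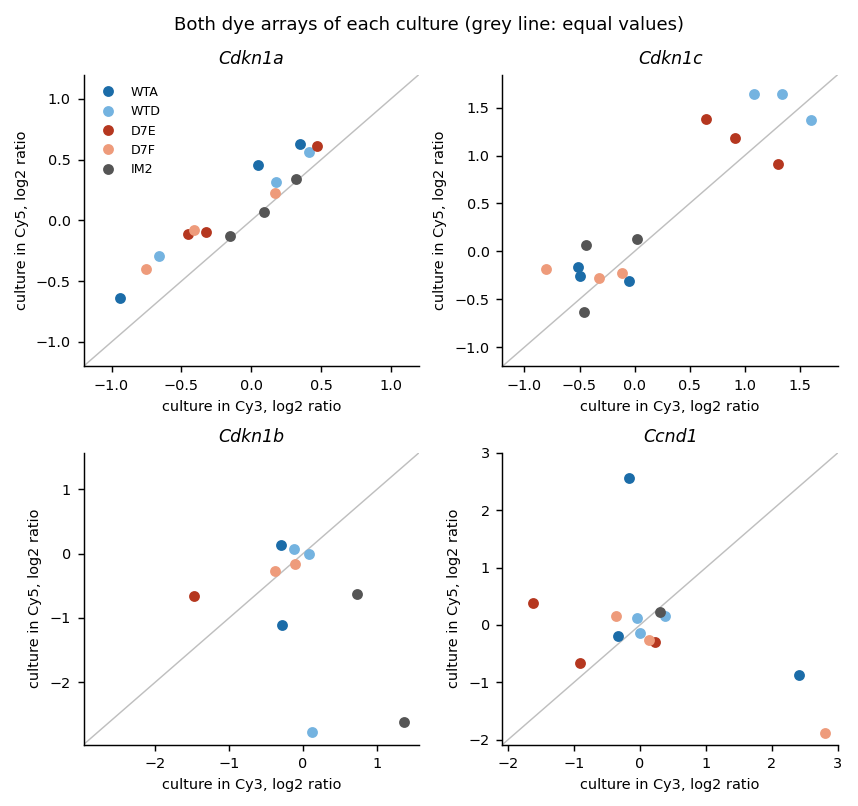
Log2 ratio with the culture in Cy5 (vertical axis) against the ratio with the same culture in Cy3 (horizontal axis) for 4 of the genes, coloured by line, with a grey line of equal values. Cdkn1a and Cdkn1c follow the line of equal values, while Cdkn1b and Ccnd1 have cultures far from it, by up to 3.99 and 4.69.

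Ccnd2 was the D cyclin with a difference from IM2 past the threshold, which was found in WTA. WTA did not differ past the threshold from any other transfected line. The part I probe gave -0.75, -0.55 and -0.72 for WTA, -0.05, -0.22 and -0.58 for WTD, 0.00, -0.33 and -0.51 for D7E, and -0.04, -0.34 and -0.27 for D7F, against 0.28, 0.00 and -0.16 for IM2. The part II probe, on other arrays and with RNA labelled poly(A), gave -1.24, -0.83 and -0.58 for WTA, -0.66, -0.76 and -0.01 for WTD, -0.71, -0.20 and -0.11 for D7E, and -0.18, -0.04 and -0.17 for D7F, against 0.13, 0.12 and -0.06 for IM2. On both probes WTA was the lowest line and its cultures lay below all IM2 cultures, as did those of 17.4% of all tested probes. D7E also lay below IM2 without overlap on part II, as did 20% of all tested probes in that line. The order of the means was IM2, D7F, D7E, WTD, WTA on both probes, although no neighbours in that order differed past the threshold. Ccnd2 fell in WTA by 0.71 on part I (SE 0.18, 1.64-fold, adjusted p = 0.0212) and by 0.95 on part II (SE 0.22, 1.93-fold, adjusted p = 0.0153). Without WTA culture 1 neither call held (adjusted p = 0.0745 on part I and 0.0694 on part II), and the part I call also ended without WTA culture 3 (adjusted p = 0.0509) or IM2 culture 1 (adjusted p = 0.0785). The part II arrays of WTA culture 1 had 60.5% and 40.8% of probes missing or at a limit. Without the 10 poorest arrays the part II difference was -0.62 (adjusted p = 0.257). It also did not pass with Cy3 arrays alone (adjusted p = 0.0724) or Cy5 arrays alone (adjusted p = 0.0523). Each call held in 20 of 28 other settings. The transfected mean differed by -0.40 on part I and -0.52 on part II, and neither passed (adjusted p = 0.0693 and 0.062). The probes differed by a median of 0.28 per culture and at most 0.71, and correlated over the 15 cultures with r = 0.437.

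Ccnd3, the D cyclin that stays high in differentiating muscle cells, had line means ± SD of 0.53 ± 0.13 for WTA, 0.22 ± 0.20 for WTD, 0.32 ± 0.29 for D7E and 0.47 ± 0.23 for D7F, against 0.08 ± 0.17 for IM2 (n = 3 each). All 4 transfected means lay above IM2, and WTA alone did not overlap with it, where 14.8% of all tested probes lay wholly above IM2 in WTA. The transfected mean was 0.30 above IM2 with an interval of 0.00 to 0.60 and did not pass (adjusted p = 0.16).

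Ccnd1, the mitogen-induced D cyclin, had 3 of 30 arrays at a limit, all of them IM2 arrays, which left a single IM2 culture with both dyes, at 0.26. Its values were 0.76, 1.20 and -0.26 in WTA, 0.04, 0.27 and -0.07 in WTD, -0.03, -0.62 and -0.78 in D7E, and 0.46, -0.06 and -0.10 in D7F. The first 2 WTA values came from dye arrays that disagreed, 2.41 and -0.88 in culture 1 and -0.16 and 2.56 in culture 2 (Cy3 first). Fits that admit Ccnd1 gave differences of the transfected mean from IM2 of -0.86 to 0.73, and none passed (adjusted p = 0.265 to 0.843).

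Counted over the set, 3 of 9 tested probes differed among the 5 lines (Rb1, adjusted p = 0.0117; Cdkn1c, adjusted p = 4.62e-05; Cdkn2c, adjusted p = 0.000739; limma F over the lines), where 10.2% of all tested probes did. In the transfected mean against IM2, 3 probes rose and 1 fell, where 15.2% of all tested probes passed, 6.41% higher and 8.84% lower. Besides Rb1 and Rbl1 these were Cdkn1c (0.69, adjusted p = 0.00247) and Cdkn2c (0.36, adjusted p = 0.0235), whose means average over lines that differ. The Cdkn1c difference did not pass when the IM2 ratios were read with the opposite sign (0.25, adjusted p = 0.149) or with Cy3 arrays alone (adjusted p = 0.0593). That of Cdkn2c held in 18 of 27 other settings. It ended without IM2 culture 1 (adjusted p = 0.064), 2 (adjusted p = 0.0581) or 3 (adjusted p = 0.0796). Centring the arrays (adjusted p = 0.0673) and either dye alone (adjusted p = 0.0622 for Cy3 and 0.331 for Cy5) also ended it, among others. The median over the 9 probes was 0.30, against 0.03 over all tested probes. By line, WTA had 2 higher and 2 lower, against a background of 11.5% (5.17% higher, 6.38% lower). Both lower ones were probes of 1 gene, Ccnd2. WTD had 2 higher, against 7.04% (2.08% higher). D7E had 2 higher and 1 lower, against 12.4% (4.13% higher, 8.22% lower). D7F had 2 higher, against 4.51% (1.6% higher). These comparisons share the IM2 cultures.

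Neither of the averaged contrasts passed for any member. Between the mutant and the wild-type lines 0 of 9 probes passed in limma after adjustment, where 0.196% of all tested probes did. At an unadjusted p under 0.05 there were 2 of the 9, against 650 of all 9708 tested probes. Those 2 were Cdkn2c (-0.28, interval -0.47 to -0.10, adjusted p = 0.414) and Ccnd2 on part II (0.45, interval 0.11 to 0.79, adjusted p = 0.565). Between the high and the low lines 0 passed after adjustment, where 0.381% of all tested probes did. At an unadjusted p under 0.05 there were 0 of the 9, against 768 of all 9708 tested probes. For Rb1 the interval was -0.37 to 0.48 for mutant minus wild-type and -0.18 to 0.67 for high minus low.

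**Figure D4:**
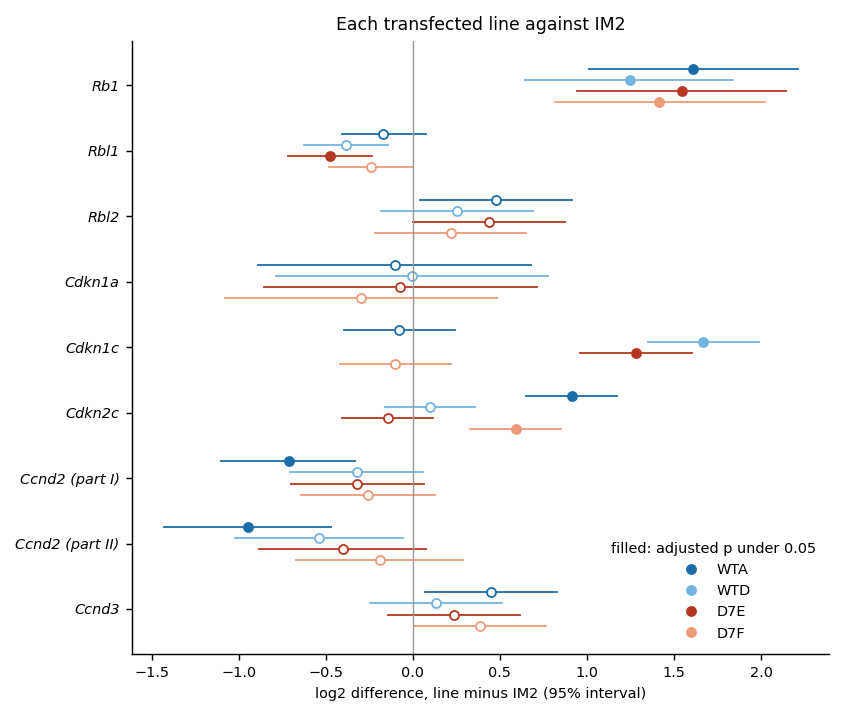
Difference of each transfected line from IM2 on the log2 scale (horizontal axis) for the 9 tested probes, with 95% intervals. Filled points have an adjusted p under 0.05. Rb1 is filled in 4 lines, Cdkn1c in WTD and D7E, Cdkn2c in WTA and D7F, and Ccnd2 in WTA.

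Genes that followed each of Rb1, Cdkn1c and Cdkn2c over the 15 cultures were looked up among 2871 named part I probes, as a description. Most like Rb1 were Bcat1, a branched-chain aminotransferase (r = 0.932), Sync, the intermediate filament protein syncoilin (r = 0.929), and Tbx15, a T-box factor (r = 0.921). Sync averaged 0.70 for WTA, 0.63 for WTD, 0.54 for D7E and 0.59 for D7F, against -0.04 for IM2. Most like Cdkn1c were Csrp3, the muscle LIM protein (r = 0.902), Psma1, a proteasome subunit (r = 0.893), and Spink4 (r = 0.879). Spink4 averaged 0.02 for WTA, 1.13 for WTD, 1.63 for D7E and 0.17 for D7F, against 0.02 for IM2. Most like Cdkn2c were Myf6, a myogenic regulator (r = 0.918), Prmt2, an arginine methyltransferase (r = 0.904), and Plcl2 (r = 0.893). Myf6 averaged 0.99 for WTA, 0.15 for WTD, 0.21 for D7E and 0.76 for D7F, against -0.02 for IM2. All values come from the same arrays and reference, and the highest correlations were picked from many.

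Of 26 tested genes that work next to the set in G1, 1 rose and 3 fell in the transfected mean, a share near the 15.2% of all tested probes, with a median of 0.01. Cks1b, which helps degrade Cdkn1b, fell by 1.17 (adjusted p = 0.000378), and fell in each of the 4 lines. Cdkn3, a phosphatase of cyclin-dependent kinases, fell by 1.12 (adjusted p = 0.016) and Lin9, of the DREAM complex that the pocket proteins Rbl1 and Rbl2 join, by 0.48 (adjusted p = 0.0193). E2f6, a repressive E2F, rose by 0.36 (adjusted p = 0.0335). The kinases gave 0.74 for Cdk2 (adjusted p = 0.0649), -0.001 for Cdk4 (adjusted p = 0.998) and 1.11 for Cdk6 (SE 0.65, adjusted p = 0.268), and none of them passed. The E-type cyclins gave -0.32 for Ccne1 and 0.02 for Ccne2, and the other INK4 family genes -0.41 for Cdkn2a, -0.22 for Cdkn2b and -0.13 for Cdkn2d, again without a call. E2f1 gave -0.63 (adjusted p = 0.0592), E2f3 -0.06, E2f4 0.01 and the E2F partner Tfdp1 0.59 (adjusted p = 0.14). In D7E alone, E2f1 fell by 1.11 (adjusted p = 0.028).

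Among genes known to be under E2F or DREAM control, 9 of 26 tested genes fell and 0 rose in the transfected mean, where 8.84% of all tested probes fell. The median over their 28 probes was -0.39, against 0.03 over all probes. Cdt1, which licenses replication origins, fell by 1.88 (SE 0.21, adjusted p = 0.000114). The helicase subunits Mcm3 and Mcm4 fell by 1.81 (adjusted p = 0.0022) and 1.04 (adjusted p = 0.00704), and Pola1, the catalytic subunit of DNA polymerase alpha, by 0.99 (adjusted p = 0.00136). By line, D7E had 10 of the 28 probes lower, against 8.22% of all tested probes, and D7F had 8, against 2.92%. WTA had 8 lower, against 6.38%, and WTD had 3, against 4.95%. Pola1 was also lower in the mutant than in the wild-type lines, by 0.92 on the log2 scale (adjusted p = 0.0212).

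Genes read as markers of other programmes moved beside the set, and their part in its differences was not tested. The counts stand beside 6.41% of all tested probes higher and 8.84% lower in the transfected mean. Of 12 p53 targets, Sesn1 rose by 0.59 and Sesn2 fell by 0.58 (adjusted p = 0.0162 and 0.0179). Of 8 mitogen-response genes, Fosl1 fell by 0.81 (adjusted p = 0.00464). Of 10 imprinted genes, Mest rose by 0.52 (adjusted p = 0.0164), and Grb10 fell by 1.16 (adjusted p = 0.000296) and Ndn by 0.52 (adjusted p = 0.00517). Grb10 averaged -0.59 for WTA, -1.37 for WTD, -1.50 for D7E and -0.71 for D7F, against 0.12 for IM2. It was thus lower in the 2 lines in which Cdkn1c was higher (genotype by level -0.79, adjusted p = 0.00741). This was the 1 call among 11 imprinted probes in that comparison, where 2.37% of all tested probes passed.

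Of 8 myogenic regulators, 4 rose and 0 fell in the transfected mean, where 6.41% of all tested probes rose, with a median of 0.43: Pax7 by 0.72 (adjusted p = 0.0428), Mef2c by 0.60 (adjusted p = 0.00862), Myf6 by 0.54 (adjusted p = 0.00384) and Myod1 by 0.31 (adjusted p = 0.0308). Against IM2, the line WTA had 2 higher and 1 lower, which was Mef2d (-0.85, adjusted p = 0.00862), named after its value was seen. Of 16 muscle differentiation genes, 5 rose and 0 fell, among them Tnni2 by 0.88 (adjusted p = 0.0456), Tnni1 by 0.51 (adjusted p = 0.0347) and 1 of 4 Ttn probes by 0.78 (adjusted p = 0.0271). The Ttn probes disagreed: in D7E 1 of them rose and another fell, the only 2 calls of this list in that line. In the genotype by level comparison 2.37% of all tested probes passed. Myf6 was the 1 call among 8 myogenic probes there (-0.69, adjusted p = 0.00146), and 0 of the 20 muscle differentiation probes passed. Among the p53 targets 1 of 12 probes was higher and 1 lower, and 1 of 4 smooth muscle probes was higher. The G1 partner, E2F-regulated, mitogen-response and fibroblast lists had 0 calls. Of 5 fibroblast marker genes 3 fell, Col3a1 by 1.44 (adjusted p = 0.000336), Col1a2 by 1.35 (adjusted p = 0.00501) and Col1a1 by 1.22 (adjusted p = 0.00162). None of 4 smooth muscle, 2 endothelial and 1 adipocyte probes passed in limma in the transfected mean, and no leukocyte marker was tested. Ratios to a reference do not show whether a marker is present, so the labelled lines could not be checked against a tissue.

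**Figure D5:**
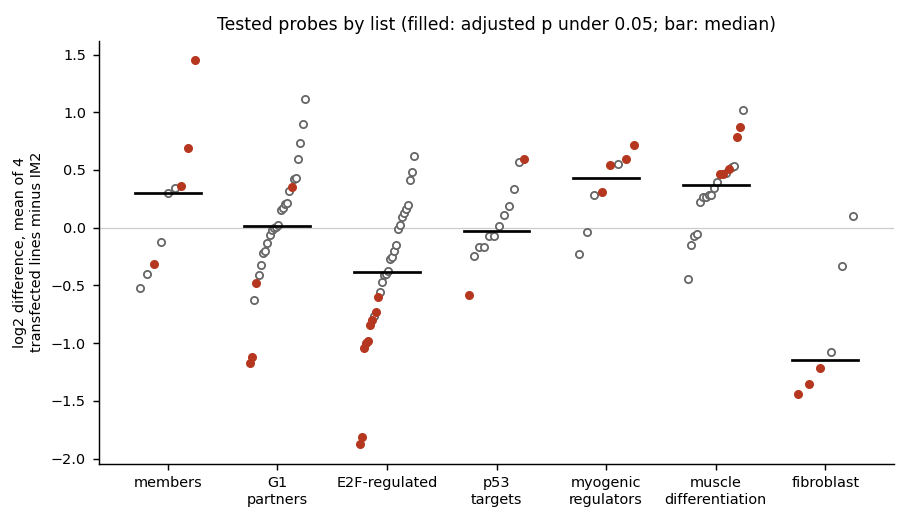
Difference of the mean of the 4 transfected lines from IM2 on the log2 scale (vertical axis) for each tested probe of 7 gene lists. Filled points have an adjusted p under 0.05 and bars are medians, which are 0.30 for the 9 probes of the set and -0.39 for the E2F-regulated list.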

How the data were processed

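RNA of 15 cultures was measured on 60 spotted 2-colour arrays, 30 per array part. The deposited values are log ratios of the 2 channels that the authors computed per spot, read here as log10 from their limits, since the files name no base. They were multiplied by 3.3219 to give log2 ratios. How arrays were scanned, background-corrected and normalised is not given in the sources used here. Spot intensities were not used. All ratios were read as culture over reference, which no source states for the deposited values. Dyes were taken from the channel sources, which contradict the title for WTA culture 3 on part I. An array of D7F culture 1 is called high in its description, and its title was followed.

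Rows of a part with identical values were collapsed. Control probes were left out, as were unnamed probes on more than 4 rows (3 on part I and 13 on part II). Probes were named through the platform annotation and the GRCm38.p6 gene table. Values at 2 or -2 were dropped, and the 2 dye arrays of a culture averaged, both being required. Probes with at least 2 cultures in every line were tested, 9708 in all. Each part was fitted with limma 3.58.1 in R 4.3.3 (lmFit and eBayes, 5 lines in 1 model), with Benjamini-Hochberg adjustment over both parts per comparison and a threshold of 0.05. Intervals are 95% intervals of that fit, not adjusted for the number of probes. The fit was tested on simulated data.

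The members and gene lists were chosen with earlier results of these data known. The text names all members, from each other list up to 4 genes with the largest called difference of the transfected mean, the direct partners of the set, and the 3 genes most correlated with each member called among the 5 lines. Culture numbers were not taken to pair the samples: same-numbered cultures of different transfected lines deviated together with a median correlation of 0.0114 on part I and 0.114 on part II, above 0.1 in 6 of 18 and 9 of 18 pairs. Only D7E and D7F on part II were above 0.1 for every culture number, with 0.446, 0.152 and 0.223 for cultures 1, 2 and 3. Single culture numbers correlated in other pairs too, highest for culture 3 of WTA and D7F, with 0.427 on part I and 0.526 on part II. Alternatives varied the limit values, the IM2 sign, centring and scaling, dyes, probe filters, poor arrays, the block, the lines fitted and each culture.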

Additional observations from a re-analysis of the deposited data

Results flagged for a closer look

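Cdkn1c and Cdkn2c are listed because the difference between high and low lines was unequal in the mutant and the wild-type pair, by the genotype by level test. That test does not test for opposite signs. The estimates had opposite signs in the 2 pairs for both genes, but the call of Cdkn2c between D7E and D7F held in only 11 of 27 other settings. Set against WTA and D7F, the mean of D7E and WTD was higher by 1.56 for Cdkn1c (adjusted p = 1.24e-05) and differed by -0.775 for Cdkn2c (adjusted p = 0.00052, limma). All 6 cultures on one side lay apart from all 6 on the other for both genes, as for 2.93% of all tested probes. Each of the 4 combinations is 1 line, so the interaction and a difference between single lines cannot be told apart.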

How the results depend on the processing

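The 24 member differences past the threshold were refitted 659 times in all: 559 refits kept direction and call, 100 kept the direction without the call, and 0 turned the direction. The 2 genotype by level calls (Cdkn1c and Cdkn2c), and the calls of Cdkn1c in WTD and in D7E against IM2, held in every alternative run. The counts of member probes past the threshold, with 2 probes for Ccnd2, moved as follows. The cause was not tested, also where fewer probes, arrays or cultures entered. In the main fit, 1480 of all 9708 tested probes passed for the transfected mean, 1121 for WTA, 683 for WTD, 1199 for D7E and 438 for D7F. Among the 5 lines 3 member probes became 5 when only probes measured in all 15 cultures were tested. In that setting 1260 of 5530 probes passed, against 990 of 9708. With either dye array enough, the transfected mean had 2 in place of 4, WTA 2 in place of 4, WTD 1 in place of 2 and D7F 1 in place of 2. Of all 18241 probes tested there, 982, 639, 253 and 214 passed in these comparisons. With Cy3 arrays alone the transfected mean had 2, WTD 1, D7F 0 and the pairs of transfected lines 3 in place of 7. Of all 12863 probes tested there, 837 passed for the transfected mean, 291 for WTD and 236 for D7F. In the pairs, 73 passed for WTA against WTD, 3 for D7E against D7F, 37 for D7E against WTA and 14 for D7F against WTD. With Cy5 arrays alone the transfected mean had 2, WTA 1, WTD 1, D7E 1 in place of 3, D7F 0 and the pairs 3. Of all 12857 probes tested there, 701 passed for the transfected mean, 288 for WTA, 220 for WTD, 421 for D7E and 101 for D7F. In the pairs, 41 passed for WTA against WTD, 2 for D7E against D7F, 10 for D7E against WTA and 16 for D7F against WTD. Centred and scaled arrays left WTA with 2, where 382 of all 9708 probes passed. Turning the sign of the IM2 arrays left WTD with 1, where 751 of 9708 passed. Without the 10 poorest arrays WTD and D7F had 1 each, where 323 and 215 of all 12462 probes tested there passed. Without the 5 poorest arrays of each part, an alternative chosen after seeing the data, the transfected mean, WTA, WTD and D7E had 1 each and D7F had 0. Of all 11834 probes tested there, 510 passed for the transfected mean, 526 for WTA, 171 for WTD, 338 for D7E and 131 for D7F. With only the lines compared fitted, WTA had 0, WTD 1 and D7F 0. Of all tested probes, 1 of 10626 passed there for WTA, 171 of 10573 for WTD and 17 of 10799 for D7F. Leaving out single cultures gave 2 to 5 for the transfected mean, 2 to 5 for WTA, 1 to 3 for WTD and 0 to 2 for D7F. The culture number as a replicate block gave 3 members among the 5 lines, 6 in the transfected mean, where Ccnd2 (part I) (adjusted p = 0.0318) and Ccnd2 (part II) (adjusted p = 0.049) were added, and 6 in the pairs, where the Cdkn2c difference between D7E and D7F ended (adjusted p = 0.0598). The calls of all tested probes moved too, over unlike numbers of tested probes. Among the lines 990 of 9708 became 183 of 12857 with Cy5 arrays alone and 1260 of 5530 with all 15 cultures required. In the genotype by level comparison 230 of 9708 became 37 of 12857 and 437 of 5530 in the same settings. In the transfected mean 1480 of 9708 became 510 of 11834 without the 5 poorest arrays of each part and 1794 of 9708 with the IM2 sign turned.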
